A study of Mus musculus with 10 samples.

Results

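The genes described here are the mouse MHC class II genes and their transactivator, 10 genes taken by name from the gene column of both tables: Cd74, H2-Aa, H2-Ab1, H2-Eb1, H2-DMa, H2-DMb1, H2-DMb2, H2-Oa, H2-Ob and Ciita. All 10 were among the 23202 genes of the macrophage table, and 7 of them were among the 19720 genes of the whole-tumor table. H2-DMb2, H2-Oa and H2-Ob in whole tumors were not analysed here. Expression was measured by RNA sequencing in mammary tumors of B6:MMTV-PyMT mice aged 15 weeks, a model in which the polyoma middle T oncogene drives tumors of the mammary epithelium. All mice carried MMTV-PyMT and Cxcr4fl/fl. Those labelled cKO also carried LysmCre, which expresses Cre recombinase from the lysozyme promoter of myeloid cells, and the controls were littermates without it. Cells sorted on F4/80 and CD11b gave 3 cKO libraries (mice 725, 746 and 867) and 3 control libraries (mice 706, 720 and 775). Whole tumors gave 2 cKO libraries (mice 725 and 746) and 2 control libraries (mice 706 and 720). Each library within a table came from a different mouse.

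MHC class II molecules are pairs of an alpha and a beta chain that carry peptides from endosomes to the surface of dendritic cells, B cells and activated macrophages, where CD4+ T cells read them. In the mouse, H2-Aa and H2-Ab1 encode the chains of I-A, and H2-Eb1 encodes the beta chain of I-E, whose alpha gene H2-Ea is not functional in C57BL/6 mice. Cd74 encodes the invariant chain, which fills the groove until the heterodimer H2-DM (H2-DMa with H2-DMb1 or H2-DMb2) exchanges its remnant for peptide, and H2-DO (H2-Oa with H2-Ob) restrains H2-DM, chiefly in B cells. Ciita encodes a transactivator that binds no DNA itself and acts through the RFX, NF-Y and CREB proteins assembled on the X and Y boxes of class II promoters, and interferon gamma induces it in macrophages.

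In the GENCODE vM21 annotation (GRCm38), 8 of the genes lie on chromosome 17 and all 10 are protein coding genes with several exons. From H2-Oa (chr17:34092340-34095234, plus strand) the class II region runs through H2-DMa (34119541 to 34139101), H2-DMb2 (34143307 to 34151555), H2-DMb1 (34153072 to 34160230), H2-Ob (34238903 to 34254414), H2-Ab1 (34257689 to 34269419) and H2-Aa (34282744 to 34287823, minus strand) to H2-Eb1 (34305867 to 34316674). Ciita lies at chr16:10480059-10528418 on the plus strand. RefSeq promoter windows on GRCm38.p6 were available for 7 of the 10 genes. The upstream stretches of 4 genes are shown because they hold the letters of the elements through which Ciita acts, or, in H2-Aa, only some of them. Capitals mark ATTGG (the core of the Y box, either strand), AACNNATG (part of the X box) and TGACGTCA (the cAMP response element). The sequences run 5′ to 3′ on the gene's strand and stop where an annotated exon of the gene begins. H2-DMb2 has a further annotated start upstream, at 34143307, so its stretch lies in an intron of that transcript.
H2-Eb1 (chr17:34305617-34305866, plus strand): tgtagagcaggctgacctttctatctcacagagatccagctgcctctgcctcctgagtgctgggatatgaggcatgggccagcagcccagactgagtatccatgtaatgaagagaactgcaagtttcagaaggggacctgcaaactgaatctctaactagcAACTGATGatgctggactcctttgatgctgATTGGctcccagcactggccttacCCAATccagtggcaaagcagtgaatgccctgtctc
H2-DMb2 (chr17:34144999-34145235, plus strand): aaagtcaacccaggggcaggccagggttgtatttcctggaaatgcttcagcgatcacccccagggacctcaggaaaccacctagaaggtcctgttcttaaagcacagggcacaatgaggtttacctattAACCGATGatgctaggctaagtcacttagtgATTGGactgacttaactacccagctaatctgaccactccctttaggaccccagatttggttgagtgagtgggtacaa
H2-Ob (chr17:34238655-34238902, plus strand): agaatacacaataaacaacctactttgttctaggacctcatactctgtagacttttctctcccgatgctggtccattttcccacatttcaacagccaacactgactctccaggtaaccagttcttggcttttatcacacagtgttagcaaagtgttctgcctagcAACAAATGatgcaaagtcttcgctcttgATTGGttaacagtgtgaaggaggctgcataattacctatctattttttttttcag
H2-Aa (chr17:34287824-34288073, minus strand): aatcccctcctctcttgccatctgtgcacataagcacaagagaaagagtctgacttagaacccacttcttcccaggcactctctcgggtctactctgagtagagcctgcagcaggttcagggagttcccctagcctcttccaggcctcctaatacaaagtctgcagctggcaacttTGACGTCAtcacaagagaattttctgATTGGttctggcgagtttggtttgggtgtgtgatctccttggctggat
In H2-Eb1, AACNNATG began 30 bases before ATTGG on the same strand. The distance was 31 bases in H2-DMb2 and in H2-DMb1 and 28 bases in H2-Ob. In H2-DMb1 the AACNNATG and the ATTGG lie inside an annotated exon of the gene. The same order within 10 to 50 bases was found in 56 of 32851 RefSeq windows of 250 bases (0.17%), whereas ATTGG alone was found in 33.8% of them and AACNNATG alone in 7.71%. H2-Aa held ATTGG 48 bases and H2-Oa 43 bases before the start without AACNNATG, and H2-Aa also held TGACGTCA, which 1.55% of windows hold. The ATTGG of H2-Oa runs into an annotated exon of the gene. The first of the windows of H2-DMa (from 34122582) held none of these letters. Another (from 34125268) held ATTGG 198 bases before its start, without AACNNATG. These windows lie inside the annotated gene, which begins at 34119541. Letters were searched on both strands and chosen after the sequences had been seen, and a match is not evidence of binding.

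The labelled cell type was checked first. All 12 macrophage markers, among them Adgre1 (the F4/80 antigen), Csf1r and the C1q genes, were detected in every sorted library, and their summed level was 1170 to 2951 CPM (counts scaled to a library total of 1e+06) against 183 to 205 CPM in whole tumors. The sum of 8 luminal epithelial markers was 3796 to 7434 CPM in the sorted libraries and 5495 to 7583 CPM in the tumors. Much of that sum was Csn3, a milk protein gene, and without it the other 7 luminal markers summed to 2124 to 3234 CPM in sorted libraries and 1178 to 1313 CPM in tumors. The sum of 5 basal epithelial markers was 17.4 to 52.0 CPM in sorted libraries and 114 to 151 CPM in tumors. The part of epithelial RNA in the values below was not tested. Control 775 stood apart, with the lowest macrophage sum (1170 CPM, against 2298 to 2951 CPM in the other 5). cKO 867 and control 775 held the most fibroblast marker RNA (1186 and 430.0 CPM, against 59.0 to 143 CPM). Cxcr4, which the Cre deletes, had no lower count in the cKO groups than in the controls. In sorted cells its level was 41.9, 165 and 24.1 CPM in cKO 725, 746 and 867 and 14.4, 135 and 54.3 CPM in control 706, 720 and 775. In tumors it was 47.9 and 57.6 CPM in cKO 725 and 746 and 29.8 and 33.4 CPM in control 706 and 720. Which exons are floxed is not given in the labels, so a count over the whole gene may not show the deletion, and cKO below means the libraries so labelled. Low values change in steps of 1 read, which put the depth at 14.4 to 25.2 M reads in sorted libraries and 34.2 to 53.4 M reads in tumors (M, 1e+06).

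The classical class II chains and the invariant chain had the highest levels among the genes described here in every sorted library. Cd74, H2-Aa, H2-Ab1 and H2-Eb1, called the chain genes below (Cd74 lies at chr18:60803848-60812652), together took 0.360% to 1.47% of a sorted library and 0.0458% to 0.0640% of a tumor library. Levels of different genes were compared per kilobase of exon, with the union of a gene's annotated exons as its length. On that scale H2-Ab1 held place 1 among the genes described here in each of the 10 libraries. Its mean was 1448 ± 745 CPM per kilobase (SD, n = 6) in sorted cells. Places here and below count only the genes described here, not all genes of a library. Cd74 (1020 ± 413) and H2-Aa (972 ± 375) held places 2 and 3 in changing order, and their ranges overlapped almost entirely. H2-Eb1 held place 4 in every sorted library, at 324 ± 135 CPM per kilobase. The ranges of these 4 genes overlapped across mice, and the order is one within libraries.

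The accessory genes were weaker. H2-DMa held place 5 in every sorted library, at 80.1 ± 28.1 CPM per kilobase (SD, n = 6), and H2-DMb1 place 6, at 39.4 ± 24.4. Ciita followed at 4.51 ± 1.48 CPM per kilobase, in place 7 or 8. H2-Oa (2.28 ± 2.91), H2-DMb2 (1.23 ± 1.31) and H2-Ob (1.22 ± 1.09) were lowest, and their ranges overlapped one another. In tumors H2-Ab1 (85.8 ± 18.7, n = 4), H2-Aa (60.02 ± 9.47), Cd74 (27.9 ± 3.38) and H2-Eb1 (14.2 ± 6.16) kept places 1 to 4 in that order in every library. H2-DMa (5.18 ± 1.63), H2-DMb1 (2.59 ± 1.31) and Ciita (0.841 ± 0.295) came after them. The place of H2-Aa depends on the length assumed. Its exon union is 3798 bases but its longest coding transcript is 1128 bases, and with the latter H2-Aa had 3274 ± 1264 CPM per kilobase in sorted cells, above H2-Ab1 (3068 ± 1579) and Cd74 (1215 ± 491).

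**Figure D1:**
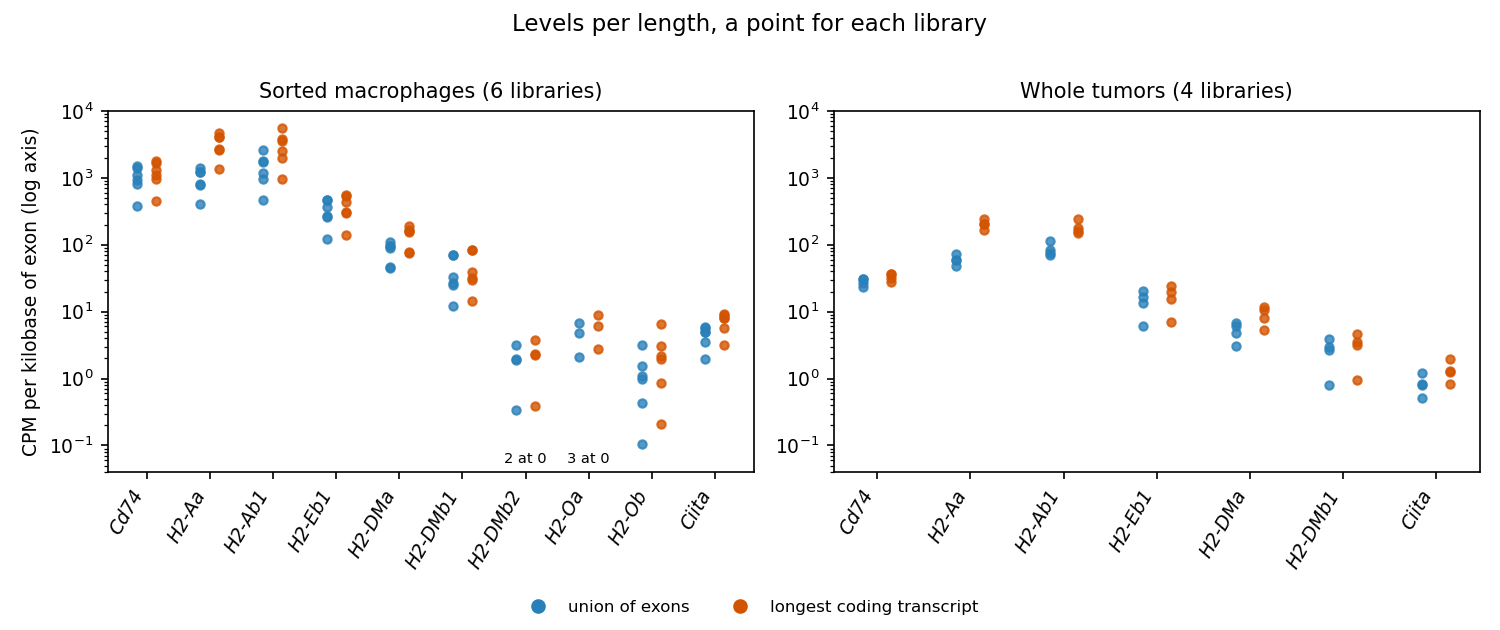
Level of each gene per kilobase of exon (log axis), a point for each library, with the union of exons or the longest coding transcript as length. In sorted cells Cd74, H2-Aa and H2-Ab1 lie above H2-DMa and H2-DMb1. H2-Eb1 lies above H2-DMa within each library, but with the longest transcript as length their ranges across libraries overlap. Ciita, H2-Oa, H2-DMb2 and H2-Ob lie lowest, with 2 libraries of H2-DMb2 and 3 of H2-Oa at 0.

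Between cKO and control macrophages no class II gene differed beyond the spread between mice. Each table was fitted by limma on log2(CPM + 1), and no gene of 16304 tested passed an adjusted p of 0.05 (0.0%). At an unadjusted p under 0.05, 428 genes passed (2.63%, of which 1.53% higher in cKO and 1.09% lower), and none of the 10 described here was among them. Every cKO library lay above every control for 3.78% of genes and under every control for 3.45%, and for none of the 10. All 10 differences were positive, that is higher in the libraries labelled cKO, as were those of 54.7% of all genes tested. Their median was 0.56 on the log2 scale, against 0.05 for all genes. The 10 genes are not independent of one another, and the count of 10 rested on control 775: without it 6 of 10 were positive and the median was 0.09. The adjusted p was 0.9998 for each of the 10.

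**Figure D2:**
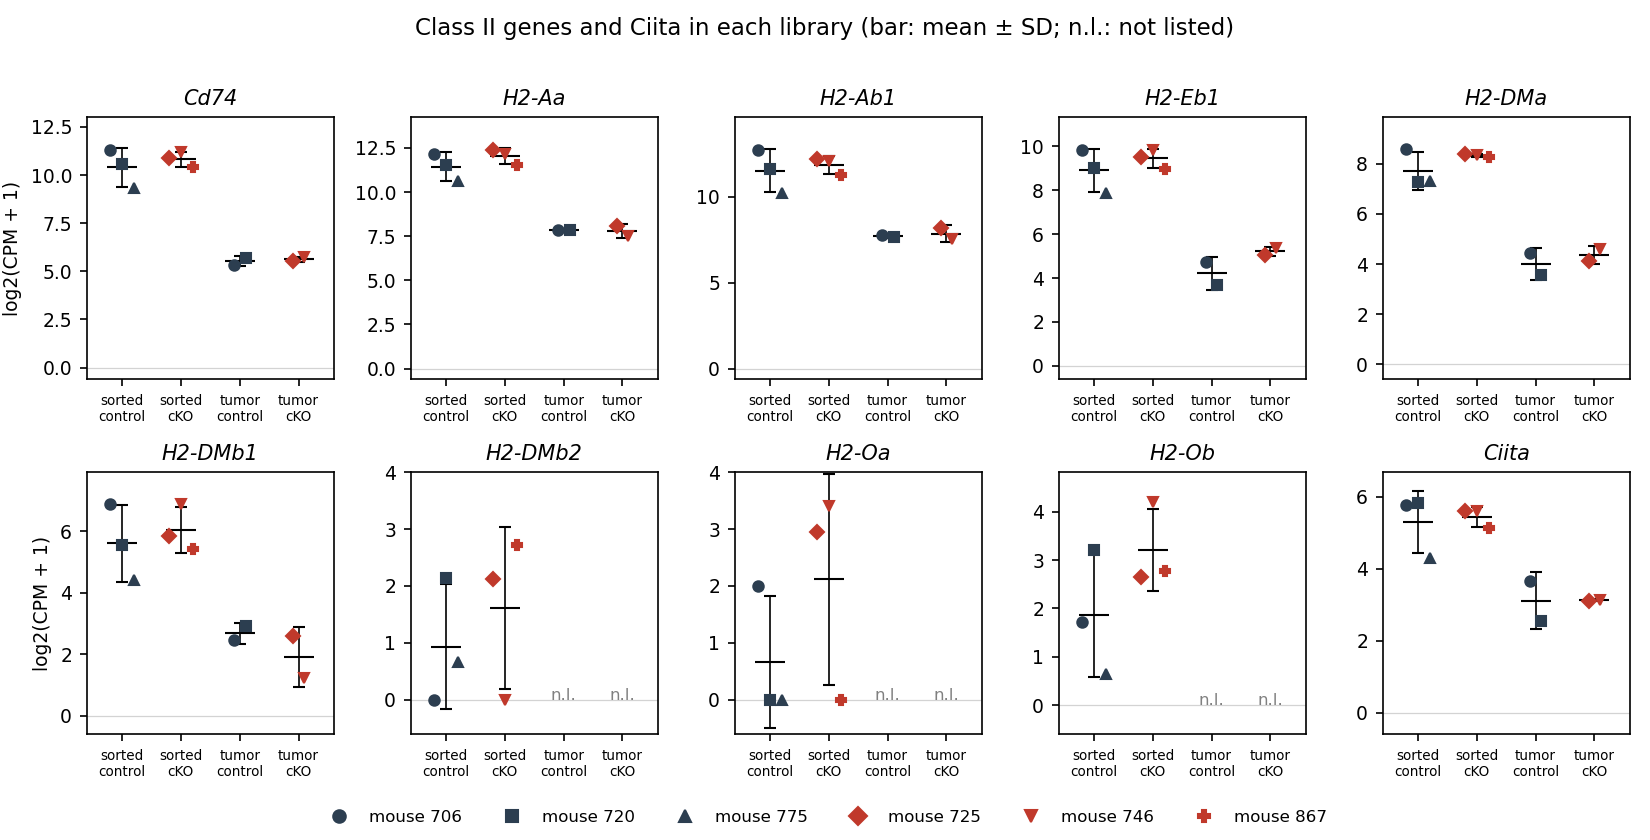
Deposited log2(CPM + 1) of each gene in every library, by group, with a symbol for each mouse and bars for the mean and SD (n.l., not listed). In sorted cells control 706 and control 775 enclose all 3 libraries labelled cKO for Cd74, H2-Ab1 and H2-DMb1.

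Among the chain genes, Cd74 was at 1872, 2327 and 1374 CPM in cKO 725, 746 and 867 and at 2539, 1535 and 632 CPM in control 706, 720 and 775. The controls held both the highest and the lowest value, so the cKO libraries lay inside their range. The difference was 0.43 (SE 0.39, 95% interval −0.38 to 1.23). H2-Aa, the I-A alpha chain, was at 5352, 4631 and 2943 CPM in cKO 725, 746 and 867 and at 4660, 3020 and 1553 CPM in control 706, 720 and 775. The groups overlapped, with cKO 725 highest and control 775 lowest. Its difference was 0.58 (SE 0.40, 95% interval −0.25 to 1.41).

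H2-Ab1, the I-A beta chain, spanned the widest range of the chain genes. It was at 4609, 4361 and 2437 CPM in cKO 725, 746 and 867 and at 6652, 3073 and 1178 CPM in control 706, 720 and 775. Control 706 was 5.65 times control 775, and the cKO libraries again lay between them. The difference was 0.34 (SE 0.47, 95% interval −0.63 to 1.31). H2-Eb1, the I-E beta chain, was at 724, 913 and 501 CPM in cKO 725, 746 and 867 and at 891, 514 and 233 CPM in control 706, 720 and 775. Control 720 lay just above cKO 867, and control 706 just under cKO 746. The difference was 0.54 (SE 0.36, 95% interval −0.20 to 1.28). The intervals of all 4 chain genes hold both no difference and a 2-fold higher level in cKO, which is 1 on the log2 scale.

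Of the 10 genes, H2-DMa, a chain of the peptide exchange factor, had the lowest unadjusted p. H2-DMa was at 333, 326 and 306 CPM in cKO 725, 746 and 867 and at 381, 152 and 159 CPM in control 706, 720 and 775. The cKO libraries were close together, whereas control 706 was above them and the other controls were far below. The difference was 0.61 (SE 0.30, 95% interval −0.0041 to 1.23), with an unadjusted p of 0.0514 and an adjusted p of 0.9998 in limma. H2-DMb1, the partner chain, was at 55.9, 116 and 42.2 CPM in cKO 725, 746 and 867 and at 118, 45.4 and 20.2 CPM in control 706, 720 and 775, and its difference was 0.43 (SE 0.45). Control 706 and cKO 746 were high and nearly equal. The count ratio of H2-DMb1 to H2-DMa was 0.309, 0.298 and 0.356 in control 706, control 720 and cKO 746, and 0.127, 0.168 and 0.138 in control 775, cKO 725 and cKO 867, so this ratio fell into a high and a low set, each holding both genotypes.

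H2-DMb2, the second beta chain gene, was listed at 3.36, 0 and 5.55 CPM in cKO 725, 746 and 867 and at 0, 3.43 and 0.585 CPM in control 706, 720 and 775. It was at 0 in the libraries where H2-DMb1 was highest, control 706 and cKO 746. Counts of the pair could not be fully separated: of the stretches of 75 bases in H2-DMb1 transcripts, 19.1% also occur in H2-DMb2, and 14.6% of those of H2-DMb2 occur in H2-DMb1. How reads that fit both were counted is not given in the sources used here. The difference of H2-DMb2 was 0.67 (SE 0.90). Of the exon bases of H2-DMa, 10.4% overlap those of Brd2 on the other strand. The spans of the noncoding genes Gm50336, on the same strand, and Gm50335, on the other strand, also overlap that of H2-DMa. Their part in its counts was not tested. Brd2 was at 346, 349 and 388 CPM in cKO 725, 746 and 867 and at 243, 441 and 261 CPM in control 706, 720 and 775, and its part in the H2-DMa counts was not tested.

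The H2-DO genes were weakly and unevenly expressed. H2-Oa was listed at 6.69 and 9.61 CPM in cKO 725 and 746, at 2.99 CPM in control 706, and at 0 in cKO 867, control 720 and control 775, and its difference was 1.45 (SE 0.94, 95% interval −0.50 to 3.40). A listed 0 allows up to 3 reads, which is 0.119 CPM in cKO 867, 0.134 CPM in control 720 and 0.130 CPM in control 775, counting error only. H2-Ob was at 5.31, 17.3 and 5.84 CPM in cKO 725, 746 and 867 and at 2.29, 8.23 and 0.565 CPM in control 706, 720 and 775. cKO 746 stood well above the rest, control 720 came second, and the groups overlapped. The difference was 1.35 (SE 0.75, 95% interval −0.20 to 2.90, unadjusted p 0.0855 and adjusted p 0.9998 in limma). Among genes with a mean of 2 to 7 CPM in the other libraries, 5.1% to 23.7% had under 3 reads in a given sorted library. Counts under 3 reads were thus not rare at this level, and the share at exactly 0 was not computed. Of the exon bases of H2-Oa, 22.8% overlap the antisense gene BC051537, and whether counting used the strand is not given in the sources used here.

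Markers of B cells, in which H2-DO is best known, were set beside the H2-DO genes. Of 10 B cell markers 8 were listed, and their sum was 14.7, 16.3 and 38.7 CPM in cKO 725, 746 and 867 and 22.5, 21.3 and 4.74 CPM in control 706, 720 and 775. Control 775 had the lowest B cell sum and the lowest H2-Ob, with H2-Oa at 0. cKO 867 had the highest B cell sum, with H2-Oa also at 0. H2-Ob was highest in cKO 746, where Ms4a1, the CD20 gene, was at 6.40 CPM, second to cKO 867 at 7.39 CPM. In control 706, 18.7 of the 22.5 CPM came from Cd22, a B cell surface lectin. The part of B cells in the H2-DO values was not tested.

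Ciita differed least between the groups. It was at 48.0, 47.6 and 34.1 CPM in cKO 725, 746 and 867 and at 54.1, 55.5 and 18.8 CPM in control 706, 720 and 775. Control 706 and control 720 were highest, cKO 725 and 746 followed close behind, and control 775 was lowest. The difference was 0.15 (SE 0.38, 95% interval −0.63 to 0.92), and without control 775 it was −0.35. Ciita and Dexi, a gene on the other strand, share 3.45% of Ciita exon bases.

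**Figure D3:**
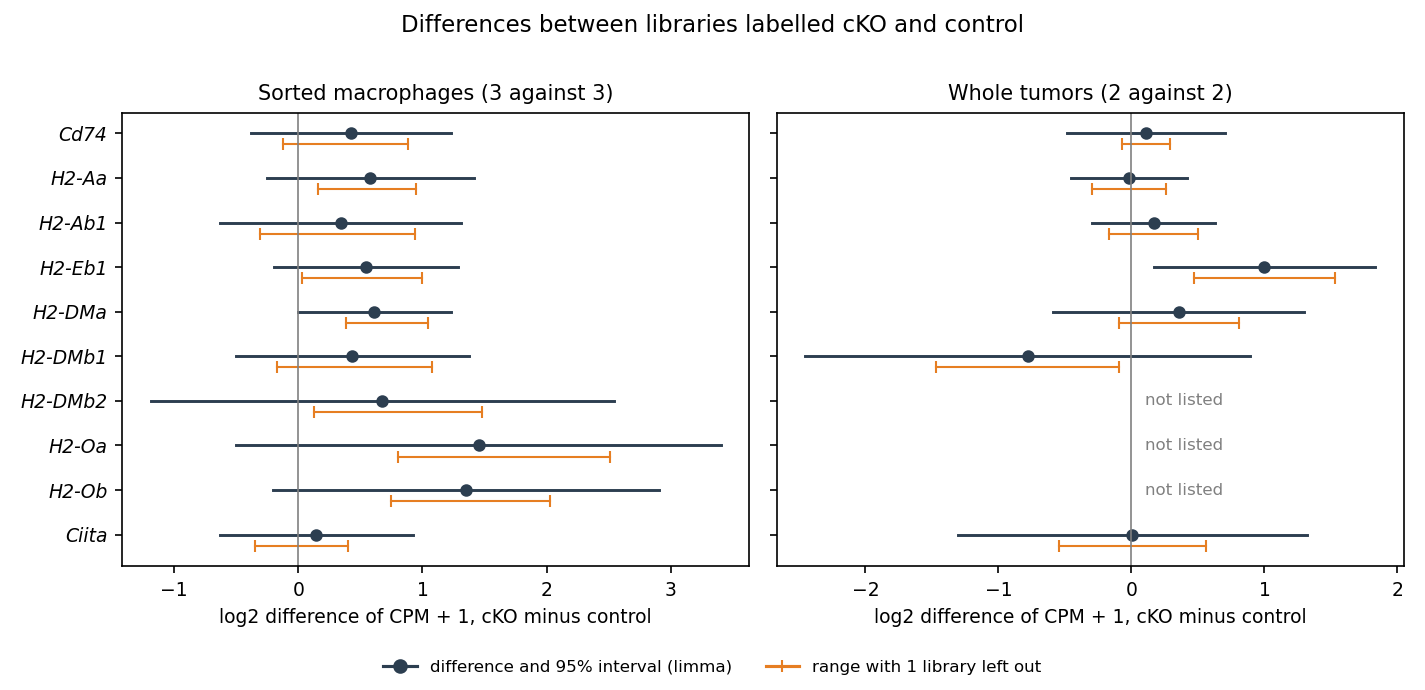
Difference between cKO and control for each gene on the log2(CPM + 1) scale, with its 95% interval from limma (dark) and the range over fits that leave out 1 library (orange), in sorted macrophages and whole tumors. Every interval in macrophages includes 0, and the ranges of Cd74, H2-Ab1, H2-DMb1 and Ciita there cross it.

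The proteins that act with Ciita were looked at through lists. Of 7 genes for RFX, NF-Y and CREB1, none passed the test in macrophages, 1 had a positive and 6 a negative difference, and the median was −0.26 (all genes 0.05). Nfyb, an NF-Y subunit, had the highest difference (0.14, SE 0.41) and Rfxank, an RFX subunit, the lowest (−0.88, SE 0.69). Of 9 genes that induce or restrain Ciita expression, mostly of the interferon gamma path, none passed, 6 were positive and 3 negative, and the median was 0.02. Spi1, a myeloid transcription factor, was at the top (0.77, SE 0.57). Of 8 genes for endosomal antigen processing none passed, and the extremes were Ifi30, the lysosomal thiol reductase (0.52, SE 0.44), and Ctsd, a lysosomal protease (−0.27, SE 0.34). Of 3 listed genes for class II turnover, none passed. Cd83, which protects surface class II, was at 0.28 (SE 0.26), and Marchf1, the ligase that removes it, at −0.06 (SE 0.34). H2-Eb2 was the only listed gene of the remaining class II locus genes looked for, at no more than 1.97 CPM in sorted cells.

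Within the sorted libraries the chain genes moved together from mouse to mouse. Their summed level was 12556, 12232 and 7256 CPM in cKO 725, 746 and 867 and 14741, 8143 and 3596 CPM in control 706, 720 and 775. H2-Eb1 held a nearly fixed count ratio to Cd74, 0.335 to 0.392 across the 6 libraries, and the 2 genes had a Pearson r of 0.993 on the log2 scale. H2-Aa varied more against H2-Ab1, from 0.700 in control 706 to 1.32 in control 775. These ratios are of counts and not per length, so they show how fixed a ratio was and not which gene was more abundant. With the mean of the 4 chain genes, H2-DMb1 had r = 0.94, Ciita 0.90, H2-DMa 0.78 and H2-Ob 0.59 over the 6 libraries. Without control 775 these were 0.88, 0.53, 0.64 and −0.18. H2-DMb2 had r between −0.46 and 0.15 with each of the other 9 genes. All points share libraries and depth, so these are descriptions.

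The genes whose pattern over the 6 sorted libraries was most like the mean of the chain genes were Rgs10 (r = 0.987), Coro1a (0.982), C1qb (0.979), Hexa (0.979), Rgs2 (0.978), Cxcl16 (0.977), Pip4k2b (0.977) and Entrep1 (0.975), taken by rank among 11333 genes averaging 5 CPM or more. Coro1a encodes an actin-binding protein of leukocytes, C1qb a complement chain made by macrophages, Hexa a lysosomal enzyme and Cxcl16 a chemokine. C1qb is also on the macrophage marker list. In all, 188 genes (1.66%) had r over 0.9. The genes most like Ciita were Lcp1 (0.996), Inpp5b (0.995), Itgal (0.989) and Atp6v1a (0.986). Lcp1 encodes a leukocyte actin-bundling protein and Itgal an integrin chain of leukocytes. Among other macrophage markers, r to the chain genes was 0.92 for Csf1r, 0.89 for Adgre1, 0.86 for C1qa, 0.66 for Cd68 and 0.35 for Itgam. For Mrc1, the mannose receptor of tissue macrophages, it was −0.55, and 10.1% of the genes had a lower r.

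Ciita had a Pearson r of 0.91 for Cd74, 0.85 for H2-Aa, 0.90 for H2-Ab1, 0.87 for H2-Eb1, 0.44 for H2-DMa and 0.79 for H2-DMb1 over 6 libraries. Of these 6 relations, H2-Ab1 had the lowest exact permutation p, 0.0417 (Benjamini-Hochberg adjusted 0.124), and Spearman's rho was 0.14 to 0.66 with exact permutation p of 0.175 to 0.803. Without cKO 867 and control 775, which lay farthest from the median of Ciita, r was −0.73 to −0.11. With TMM factors, an alternative added after the data were seen, it was −0.51 to 0.25, with H2-Aa (0.16) and H2-Ab1 (0.25) positive. The relation therefore rests on those libraries, and with 3 libraries a group it could not be given within a genotype. Nor was it particular to class II genes. Of 11333 genes, 244 (2.15%) had r over 0.9 with Ciita. Among macrophage markers, r with Ciita was 0.94 for Adgre1, 0.91 for Csf1r, 0.89 for Cd68, 0.86 for C1qa, 0.50 for Itgam and −0.43 for Mrc1.

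Marker levels stood beside the chain genes as follows. Control 775, lowest for each chain gene, also had the lowest sum of macrophage markers. Per unit of that sum, the chain sum was 5.47, 4.15 and 2.87 in cKO 725, 746 and 867 and 5.64, 3.02 and 3.07 in control 706, 720 and 775, so control 775 was no longer lowest and the groups still overlapped. The sum of 12 dendritic cell markers was 425, 653 and 656 CPM in cKO 725, 746 and 867 and 506, 597 and 386 CPM in control 706, 720 and 775. Itgax and Kit made up most of it: the other 10 markers summed to 71.5, 51.8 and 161 CPM in cKO 725, 746 and 867 and to 66.3, 69.4 and 44.0 CPM in control 706, 720 and 775. Kit was no higher in sorted libraries (146 to 382 CPM) than in tumors (254 to 393 CPM). Flt3, a defining marker of dendritic cells, was at 0 in cKO 725, cKO 746 and control 775. Clec9a, a marker of cross-presenting dendritic cells, was at 12.05, 7.40 and 6.80 CPM in cKO 725, 746 and 867 and at 0, 0.979 and 1.61 CPM in control 706, 720 and 775. Xcr1, a marker of the same cells, was at 1.47, 1.201 and 0 CPM in cKO 725, 746 and 867 and at 4.31, 3.87 and 0.913 CPM in control 706, 720 and 775. Of the 12 dendritic cell markers, 8 had a positive and 4 a negative difference, and none passed the adjusted threshold in limma. The part of these cell types in the class II values was not tested. In bulk libraries, fewer cells of a type and less RNA per cell cannot be told apart.

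**Figure D4:**
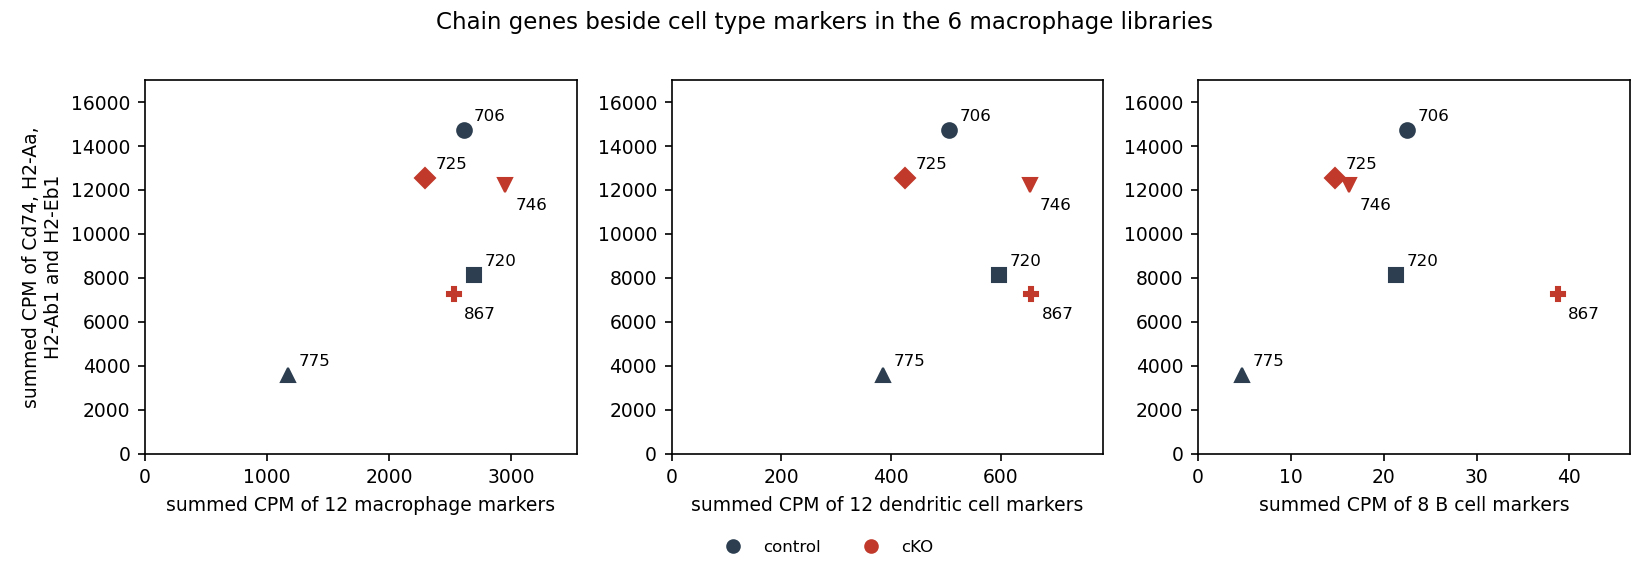
Summed CPM of Cd74, H2-Aa, H2-Ab1 and H2-Eb1 (vertical axis) against the summed CPM of macrophage, dendritic cell and B cell markers (horizontal axes) in the 6 sorted libraries, labelled by mouse. Control 775 is lowest on both axes of all 3 panels, the dendritic cell sum is mostly Itgax and Kit, and cKO 867 has the highest B cell sum beside a chain sum of 7256 CPM.

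In whole tumors the class II genes also showed no difference that passed the test. No gene of 14630 tested had an adjusted p under 0.05 in limma (0.0%), and 856 (5.85%) had an unadjusted p under 0.05, 3.9% higher in cKO and 1.95% lower, against 1 of the 7 genes listed. With 2 libraries a group, every cKO value lay above every control value for 21.2% of genes and under it for 14.3%. Of the 7 genes listed, 5 had a positive difference, against 56.6% of all genes, and the median was 0.11, against 0.09 for all genes. Scaling to protein-coding genes in place of the library total moved the median of all genes to −0.02 and that of the 7 genes to −0.01, with 3 positive.

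Of the 7 genes, 1 had groups that did not overlap, H2-Eb1, with every cKO value above every control. That was so for 21.2% of all genes tested, and the reverse for 14.3%, so such a separation was common with 2 libraries a group. H2-Eb1 was at 32.5 and 40.0 CPM in cKO 725 and 746 and at 25.8 and 11.8 CPM in control 706 and 720. Control 720 was far below the rest, and control 706 was closer to cKO 725 than to control 720. The difference was 1.0 (SE 0.39, 95% interval 0.17 to 1.83), with an unadjusted p of 0.0216 and an adjusted p of 0.8193 in limma. Without control 720 the difference was 0.47 and without control 706 it was 1.53. In the sorted cells of control 720 the count ratio of H2-Eb1 to Cd74 was 0.335, close to that of the other mice, whereas in its tumor it was 0.232 against 0.653 to 0.772 in the other tumors. The span of the noncoding gene Gm20513 overlaps that of H2-Eb1 on the other strand. In GENCODE vM21 no exon bases of H2-Eb1 were shared with another gene. The part of Gm20513 in the H2-Eb1 counts was not tested.

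The other chain genes were close between tumor groups. Cd74 was at 45.4 and 51.8 CPM in cKO 725 and 746 and at 39.5 and 50.9 CPM in control 706 and 720 (difference 0.11, SE 0.28). H2-Aa was at 273 and 185 CPM in cKO and at 227 and 228 CPM in control, in the same order of mice (−0.02, SE 0.21, 95% interval −0.46 to 0.42). H2-Ab1 was at 290 and 182 CPM in cKO and at 213 and 196 CPM in control (0.17, SE 0.22, 95% interval −0.30 to 0.63). For both I-A genes the cKO libraries held the highest and the lowest value, so the controls lay inside their range.

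H2-DMa was at 16.3 and 23.5 CPM in cKO 725 and 746 and at 21.0 and 10.7 CPM in control 706 and 720 (0.36, SE 0.45). H2-DMb1 was at 5.02 and 1.33 CPM in cKO and at 4.45 and 6.59 CPM in control (−0.78, SE 0.79). cKO 746 therefore had the most H2-DMa and the least H2-DMb1 of the 4 tumors. Ciita was at 7.60 and 7.82 CPM in cKO and at 11.7 and 4.90 CPM in control (0.01, SE 0.62, 95% interval −1.30 to 1.32), with both cKO values between the controls. Of 6 tested RFX, NF-Y and CREB genes none passed, and differences ran from Rfx5 (−0.22, SE 0.30) to Nfyb (0.20, SE 0.44). Of 7 tested inducers none passed, and Irf1, an interferon-induced factor, was highest (0.89, SE 0.48). Of 8 processing genes none passed, with Ctsd lowest (−0.17, SE 0.19) and Ifi30 highest (0.61, SE 0.74). Among the turnover genes Marchf1 was at −0.19 (SE 0.91) and Cd83 at 0.38 (SE 0.84).

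Sorted cells were set beside the whole tumor of the same mouse in 4 mice. The tables were normalized separately, so this is a description with no test. All 7 genes were higher in the sorted cells of all 4 mice, as were all 12 macrophage markers and 28.9% of all genes in both tables. The mean difference was 5.41 ± 0.45 for Cd74 (SD, n = 4 mice, log2 scale), 4.83 ± 0.44 for H2-Eb1, 4.37 ± 0.48 for H2-Ab1 and 4.25 ± 0.38 for H2-Aa. It was 3.99 ± 1.35 for H2-DMb1 and 3.96 ± 0.28 for H2-DMa, and least for Ciita, 2.59 ± 0.48. The median over macrophage markers was 4.10, with C1qa highest (5.22), and the median over all 18306 genes in both tables was 0.28. Ciita was thus less enriched than each chain gene and each DM mean, in 4 of 4 mice for the chain genes and H2-DMa and in 3 of 4 for H2-DMb1.

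By mouse, the difference of Cd74 was 5.97, 4.89, 5.34 and 5.46 in mice 706, 720, 725 and 746, and that of Ciita was 2.11, 3.26, 2.51 and 2.46. Mouse 706 had the highest enrichment of Cd74 and the lowest of Ciita, and mouse 720 the reverse. As a count ratio to H2-Ab1, Ciita was 0.814% to 1.80% in the 6 sorted libraries and 2.49% to 5.51% in the 4 tumors, with no overlap. H2-DMb1 varied most, from 2.61 in mouse 720 to 5.65 in mouse 746. Relative to the mean of the macrophage markers, the difference was 1.53 for Cd74, 0.36 for H2-Aa and −1.30 for Ciita.

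**Figure D5:**
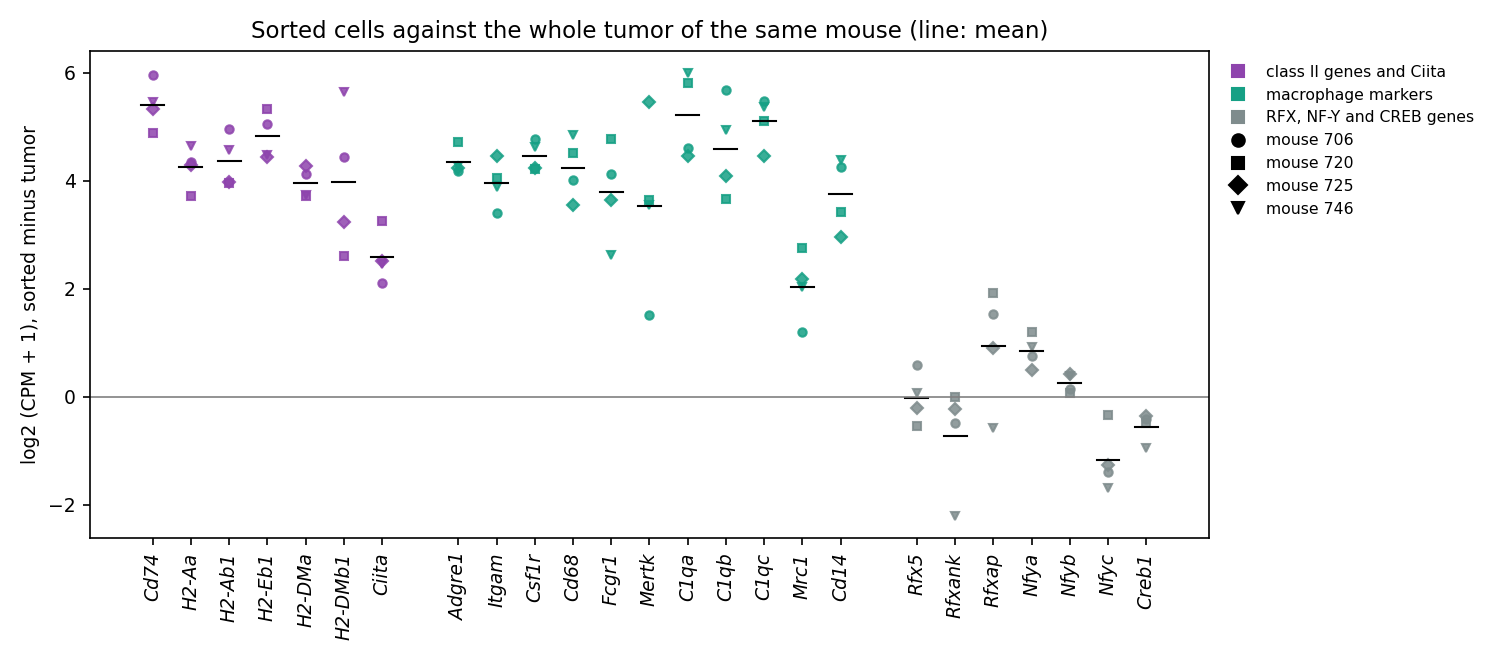
Difference in log2(CPM + 1) between sorted cells and the whole tumor of the same mouse (vertical axis) for 7 genes described here, macrophage markers and 7 RFX, NF-Y and CREB genes, with a symbol for each of 4 mice and a line for the mean. The chain genes lie among the macrophage markers, Ciita lies lower at 2.59, and the RFX, NF-Y and CREB genes lie around 0.

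The balance between the chain genes also differed between sorted cells and tumors. The log2 ratio of H2-Aa to Cd74 per kilobase was −0.30 to 0.34 in the 6 sorted libraries and 0.66 to 1.41 in the 4 tumors, and that of H2-Ab1 to Cd74 was 0.21 to 0.78 and 1.199 to 2.06. Neither range overlapped, and the gap between tables does not depend on the length chosen. For H2-Eb1 to Cd74 the ranges were −1.79 to −1.56 and −2.32 to −0.58 and overlapped. The other genes of the path were enriched unevenly. Of 7 RFX, NF-Y and CREB genes, 2 were higher in sorted cells in all 4 mice and the median was −0.02, with Rfxap at the top (0.94) and Nfyc at the bottom (−1.17). All 8 inducers in both tables were higher in all 4 mice, from Jak2 (0.36, close to the all-gene median of 0.28) to Spi1 (4.08). All 8 processing genes were too, from Sppl2a, the protease that clears the invariant chain remnant (0.36), to Ctss, the protease that trims the invariant chain (5.32). With scaling to protein-coding genes 5 of 8 inducers and 7 of 8 processing genes were higher in all 4 mice, against 16.9% of all genes, and the medians of the 7 class II genes and the 12 markers became 3.71 and 3.84. Cd83 had a larger difference than any class II gene, 6.74 ± 0.13 (SD, n = 4 mice).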

How the data were processed

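The 10 libraries were mapped to groups by their labels. The deposited tables speak of normalized counts, yet hold log2(CPM + 1): 2 raised to each value, less 1, sums to 1e+06 in every library. The formula is read from the values, and counting rules and filters are not given in the sources used here. STAR 2.7.8a, Partek and the build GRCm38 (mm10) are named in the submitters' processing notes. Gene starts in the tables matched the GENCODE vM21 annotation of that build for 2.63% and 2.72% of genes found by identifier, so locations were taken from the annotation.

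The design assumed linear values and a pseudocount of 1, which the deposited log2 values already include, so no further logarithm was taken. The macrophage and tumor tables were fitted apart in limma 3.58.1 (R 4.3.3; lmFit, eBayes with trend), cKO minus control, for genes averaging at least 1 CPM. Two-sided p-values received a Benjamini-Hochberg adjustment (threshold 0.05). Within 0.1 read, 85.8% to 89.1% of low values were whole reads, under the 95% set, so no count test was run. The fit was tested on simulated data. The members and lists were chosen with earlier results of these data known. Named genes are the 10 members, the extremes of each list, and the 8 genes most like the chain genes and 4 most like Ciita, without predicted models, Rik genes and pseudogenes. Other genes are named as markers, as overlapping genes or, for Cd83, Mrc1 and C1qa, after their values were seen. Some results that this rule picks are not reported here. The alternatives are given in the closing section.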

Additional observations from a re-analysis of the deposited data

How the results depend on the processing

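No member passed the threshold in either comparison under any alternative run: pseudocounts of 0.1 and 5, no filter, a mean of at least 5 CPM, rescaling by TMM, median-ratio or protein-coding totals, no trend, each library left out, and the 4 mice with both libraries. Protein-coding scaling was added after the data were seen. No paired analysis was possible because cKO and control share no mouse, and mouse numbers recur only between the tables, which were normalized separately. In macrophages the number of genes past the threshold was 0 to 3 with 1 library left out (1 without control 706, 3 without control 775, 1 without cKO 867) and 2 in the 4 mice. All members tested kept a positive difference under each scaling, filter and pseudocount. With 1 library left out the difference ranged from −0.12 to 0.88 for Cd74, −0.31 to 0.94 for H2-Ab1, −0.17 to 1.07 for H2-DMb1 and −0.35 to 0.40 for Ciita, lowest without control 775 in each case. Without control 706, 6 of the 10 members had an unadjusted p under 0.05 in limma (lowest adjusted p 0.9998). The median of the members in that fit was 0.97, against 0.06 for all genes. Unadjusted p was also under 0.05 for H2-DMa with no filter, H2-Ob without control 720, H2-Oa and H2-Eb1 without cKO 867 and H2-Oa in the 4 mice. The share of all genes with an unadjusted p under 0.05 was not computed for these runs. The members are not independent of one another, so these counts are not read as a result about them. In the 4 mice, H2-Ab1 (−0.0121), H2-DMb2 (−0.0115) and Ciita (−0.19) turned negative. In tumors, leaving out 1 library gave −0.0155 to 0.22 for the median, −0.07 to 0.29 for Cd74, −0.30 to 0.26 for H2-Aa, −0.17 to 0.50 for H2-Ab1, −0.0975 to 0.81 for H2-DMa and −0.55 to 0.56 for Ciita. H2-Eb1 kept an unadjusted p under 0.05 except with no trend and without control 720, cKO 725 or cKO 746. With 1 tumor left out, the lone library of its group is assumed to vary like the other group. Protein-coding scaling gave −0.007 for the median, which is Cd74, and −0.0955 for Ciita, and Ciita was −0.0179 with a pseudocount of 5, −0.0453 with TMM and −0.0644 with median-ratio factors. Per kilobase of the longest transcript, the log2 ratio to Cd74 in macrophages was 1.45 for H2-Aa (−0.05 with the exon union) and 1.27 for H2-Ab1 (0.44), and in tumors 2.60 (1.10) and 2.43 (1.60), a difference set by the lengths alone. The median difference between sorted cells and tumor, 4.25, was 3.71 with protein-coding scaling and 0.36 relative to macrophage markers, where Ciita was −1.30, and 4.12 to 4.45 with 1 mouse left out. Genes with r over 0.9 to the chain genes numbered 188, 118 with TMM and 245 without control 775. Where no cause is named, the cause was not tested. Estimated reads of H2-DMb2, H2-Oa and H2-Ob were 0 to 345 a library, and a listed 0 allows up to 3 reads.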
